A study of Mus musculus with 4 samples.

Results

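Chemokines are small secreted proteins, or in a few cases membrane-tethered ones, that steer the movement of leukocytes and other cells, and chemokine receptors are the G protein-coupled receptors that read them. The genes described here are all those in the deposited tables with a symbol of the Ccl, Cxcl, Ccr or Cxcr series, together with Cx3cl1, Cx3cr1, Xcl1 and Xcr1. They came to 56 symbols, 38 ligands and 18 receptors, carried by 62 of the 27734 Ensembl rows that all 4 tables share. Rows with the same symbol were summed, which concerned 5 symbols. No measured value was used to choose them.

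In the vessel wall, homeostatic ligands such as Cxcl12 are made by stromal cells all the time, while inflammatory ligands such as Ccl2 and Cxcl2 are made on stimulation and draw in monocytes and neutrophils. Most inflammatory receptors read several ligands, whereas pairs such as Cxcl16 with Cxcr6 or Cx3cl1 with Cx3cr1 are nearly exclusive. Atypical receptors such as Ackr3 bind ligands without the usual G protein signal and remove them. RNA gives the cells that carry the transcript and says nothing of secreted protein or of binding.

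The series is a droplet single-cell RNA-seq study of mouse aorta at 16 to 20 weeks of age, with 4 libraries and 1 library in each group. The control mice carried CNC-SMC-Cre;R26-tdT and the cKO mice, in addition, Smad4flox/flox, so that all 4 groups carry the Cre driver and the reporter and only the cKO carries floxed Smad4, the common mediator of TGF-beta and BMP signalling. From each genotype 1 library was made of the aortic arch and 1 of the descending thoracic aorta, and each library is named here by its genotype and region. The number of animals in a library is not stated by the labels, and with 1 library per group no difference below has a replicate check or a test. What the genotypes and the regions share with a library's handling therefore cannot be told apart from genotype and region.

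After filtering, 5559, 8040, 5612 and 4975 cells were kept in the arch libraries of cKO and control and the descending libraries of cKO and control, with median depths of 5765, 9944.5, 6397 and 7028 unique molecular identifiers (UMIs, counted transcripts) per cell. In the same order, 2321, 600, 676 and 959 of 8634, 9283, 6813 and 6351 barcodes failed the filter on gene number. The mitochondrial filter was failed by 1733, 87, 334 and 367 barcodes, and a barcode could fail both. Before filtering the median depth was 2685.5, 9503, 5423 and 5244 UMIs per barcode. Both losses were thus largest, and this depth lowest, in cKO arch. Their part in the levels and ratios below was not tested. Any 2 libraries shared between 28 and 61 cell barcodes. The cKO arch table had been counted against another set of 28693 features than the other tables, with 32285 each, so that a different annotation goes with that group throughout. Smad4 itself stood at 72.1, 86.2, 91.2 and 92.0 CPM (a level scaled to library depth, defined below) in the smooth muscle-like cells of the same 4 libraries, with counting intervals of 67.2 to 77.2, 81.1 to 91.4, 86.8 to 95.8 and 87.5 to 96.8. Reads of the undeleted part of the gene count here too, so this value does not check the deletion. The cells fell into 33 clusters, grouped and named by marker genes that include no chemokine or receptor, and 7 clusters stayed unnamed. Mononuclear phagocyte-like cells (macrophage-, monocyte- and dendritic-like clusters, below phagocyte-like cells) were 25.0%, 4.47%, 9.41% and 11.7% of cells, and neutrophil-like cells numbered 423, 7, 19 and 10.

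Values are CPM (counts per 1000000), the UMIs of a gene scaled to the summed UMIs of a cell class in a library, with exact Poisson 95% intervals that cover counting error only. Because the library chemistry reads the 5′ end of transcripts, the counts were not scaled to gene length, and levels are compared between cells and libraries but not between genes. Where 4 values follow each other, their order is that of the cell numbers above: arch cKO, arch control, descending cKO, descending control.

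The chemokine and receptor genes together took 409109 UMIs, 0.1835% of all UMIs, of which the ligands had 380732 and the receptors 28377. Of the 56 symbols, 49 had at least 30 UMIs over the kept cells (33 ligands and 16 receptors), and 36 had at least 30 in each library. Ccl21b, Ccl21c, Ccl27b, Ccr3 and Cxcr1 had between 1 and 29 UMIs in all, and Ccl20 and Ccl26 had none. Over all cells of a library the summed ligands stood at 4662, 607.4, 1129.1 and 1546.1 CPM and the summed receptors at 362.6, 41.2, 87.5 and 105.0 CPM. The cKO arch library was thus highest and control arch lowest in both sums, which also follow the share of phagocyte-like cells.

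**Figure D1:**
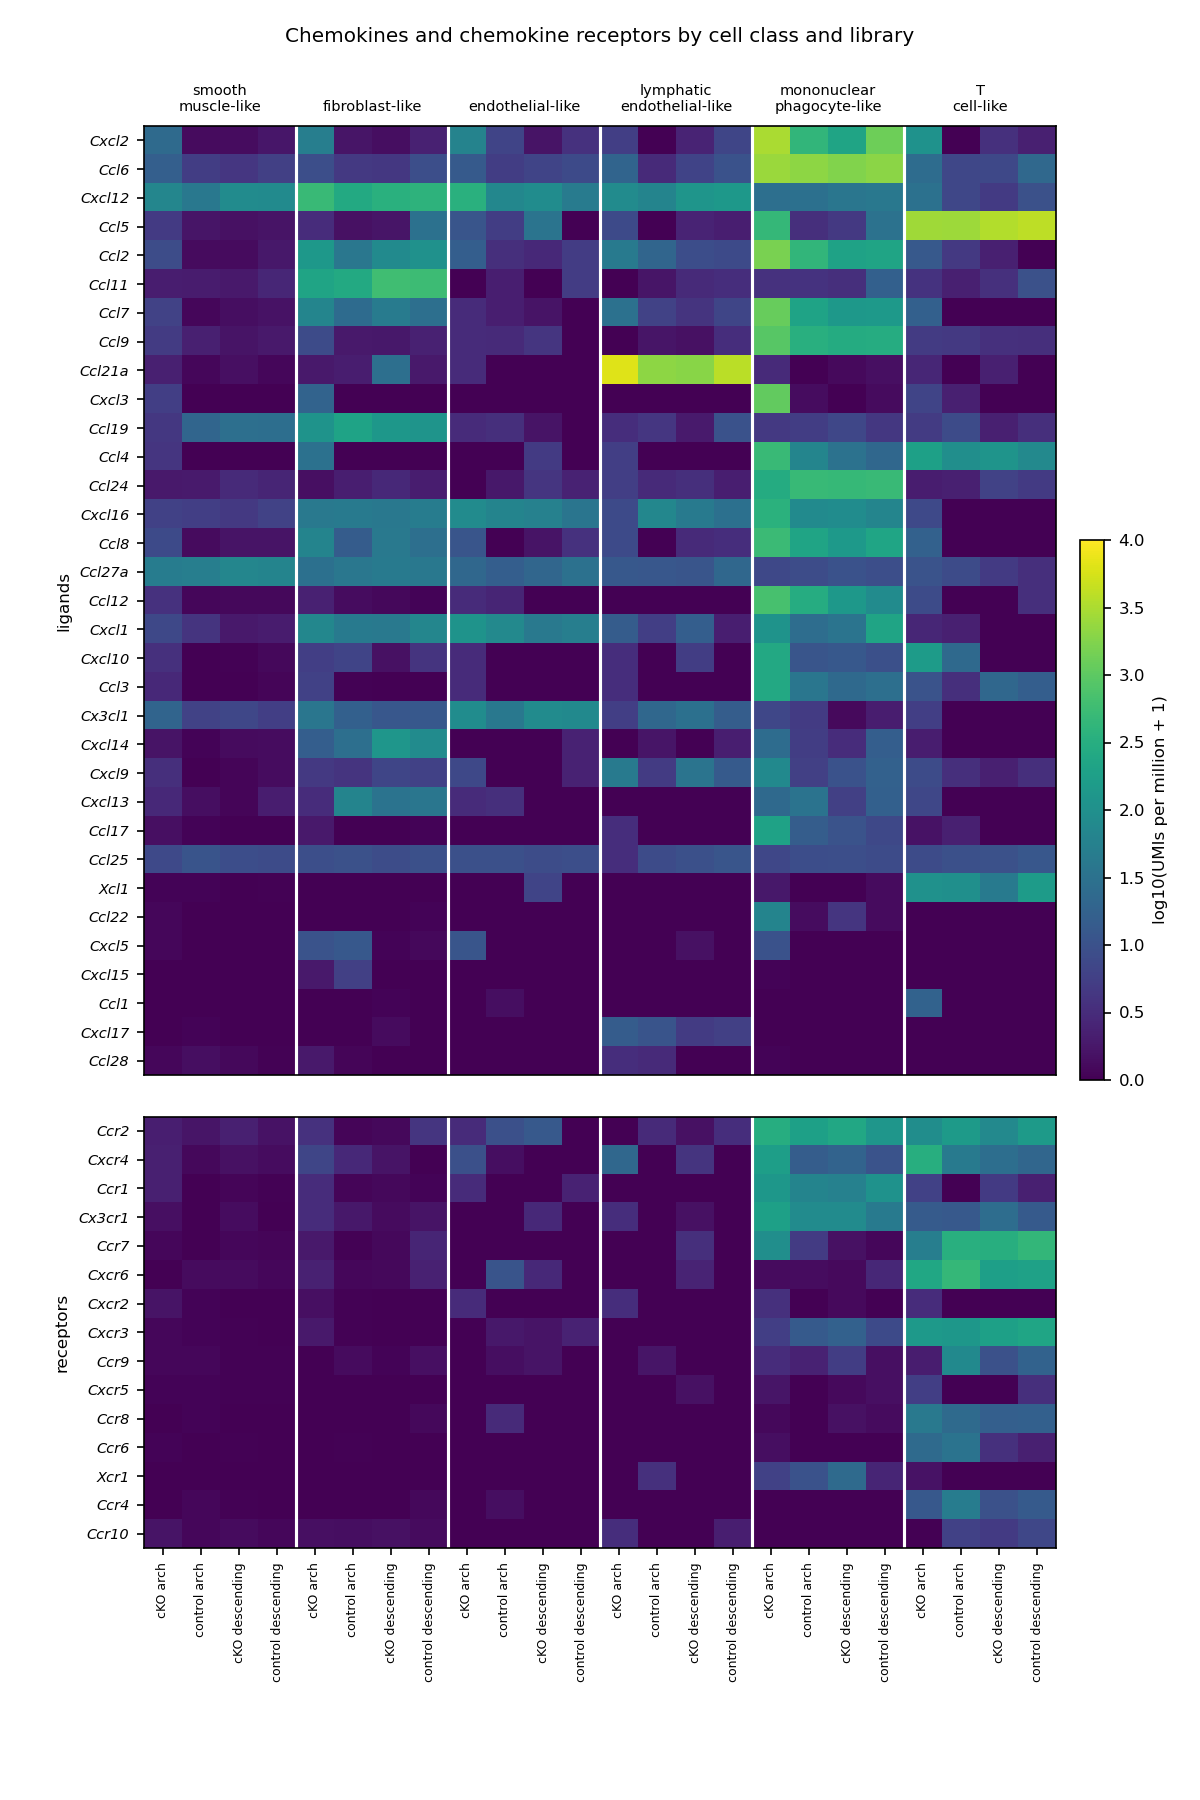
Colour gives log10(CPM + 1) for 33 ligands and 15 receptors with at least 30 UMIs (rows), in 6 cell classes of each of the 4 libraries (columns). Most inflammatory ligands are brightest in the phagocyte-like columns, the lymphatic endothelial-like columns stand out for Ccl21a and the fibroblast-like columns for Ccl11, and receptors are near 0 in the structural classes.

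Sources of the ligands were ranked in each library among the larger cell classes. For the 26 ligands with at least 30 UMIs in each library, the class with the highest CPM was looked up among the 6 classes with at least 50 cells everywhere. It was the same class in all 4 libraries for 19 of the 26. Phagocyte-like cells led for 11 of them (Ccl2, Ccl3, Ccl6, Ccl7, Ccl8, Ccl9, Ccl12, Ccl17, Ccl24, Cxcl2 and Cxcl16), and fibroblast-like cells for Ccl11, Ccl19 and Cxcl12. T cell-like cells led for Ccl5 and Xcl1, lymphatic endothelial-like cells for Ccl21a, smooth muscle-like cells for Ccl27a and endothelial-like cells for Cx3cl1. Among the ligands whose leading class differed between libraries, Cxcl13 and Cxcl14 were highest in fibroblast-like cells in 3 libraries and in phagocyte-like cells in cKO arch. Classes with under 50 cells in some library were left out, and some lay above the leading class where they had enough cells. They were neutrophil-like cells for Cxcl2, NK cell-like cells for Ccl5, pericyte-like cells for Ccl19 and mesothelial-like cells for Cxcl16, among others.

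Cxcl2, a neutrophil attractant that acts through Cxcr2, had the most UMIs of the set. In phagocyte-like cells it stood at 3079 CPM (3045 to 3113) in cKO arch, 422.6 (398.9 to 447.4) in control arch, 212.5 (198.6 to 227.1) in cKO descending and 1321 (1293 to 1350) in control descending. It was therefore high in cKO arch and in control descending and low in the other two libraries. In control descending a cluster of 126 cells led by Alox15, Saa3 and Prg4 (cluster 31) carried Cxcl2 at 3639 CPM, and this cluster had 6, 1 and 16 cells in the other libraries. In cKO arch the highest level was in neutrophil-like cells, at 17630 CPM with a UMI in 97.4% of cells, followed by a phagocyte-like cluster led by Arg1, Ppbp and Thbs1 (cluster 5) at 8010 CPM.

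Cxcl3 and Cxcl5, which also act through Cxcr2, were nearly confined to cKO arch among phagocyte-like cells. Cxcl3 had 10895 UMIs there (1077 CPM), against 1, 0 and 2 UMIs in the phagocyte-like cells of the other libraries. Within cKO arch, Cxcl3 stood at 5982 CPM in cluster 5, with a UMI in 77.1% of its cells, at 1143 CPM in neutrophil-like cells, at 28.4 CPM in the dendritic-like cluster led by Lyz1, Ear2 and Cd209a (cluster 26), at 20.8 CPM in the cluster led by Cd72 and Ms4a4c (cluster 13) and at 0 in the cluster led by Cd209f, Folr2, F13a1 and Cd163 (cluster 10). Cluster 5 had 236 cells in cKO arch and none in any other library. Cxcl1, a close relative read by the same receptor, stood at 113.9, 25.6, 33.4 and 211.9 CPM in phagocyte-like cells and at 113.4, 76.3, 40.5 and 51.0 CPM in endothelial-like cells.

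Cxcl1, Cxcl2 and Cxcl3 lie on chromosome 5, with Cxcl15 between Cxcl3 and Cxcl1, and Cxcl10 lies further along. In GRCm38 with the GENCODE M21 annotation, Cxcl3 spans 90786103 to 90789600, Cxcl1 90891241 to 90893115, Cxcl2 90903871 to 90905938 and, on the minus strand, Cxcl10 92346638 to 92348889. The 250 bases before the RefSeq start of each, from the promoter table for GRCm38.p6, are printed. These genes were chosen because each was at least 2-fold higher in phagocyte-like cells of cKO arch than of control arch and holds a shared motif. Within cKO arch, Cxcl1 and Cxcl3 were highest in cluster 5, and Cxcl2 and Cxcl10 in neutrophil-like cells. Any part of the motif in these levels was not tested. Capitals mark matches to an NF-kappaB motif, GGGA, any 2 bases and TTCC (on the other strand GGAA, any 2 bases and TCCC) and, in Cxcl10, also to an interferon-response motif, GAAA, any 2 bases and GAAA (on the other strand TTTC, any 2 bases and TTTC).
Cxcl1, chr5:90890995-90891244, plus strand: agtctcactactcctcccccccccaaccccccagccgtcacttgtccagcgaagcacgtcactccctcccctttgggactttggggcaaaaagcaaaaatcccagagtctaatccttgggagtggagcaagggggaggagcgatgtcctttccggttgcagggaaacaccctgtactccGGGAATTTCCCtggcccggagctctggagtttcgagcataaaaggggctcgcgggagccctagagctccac
Cxcl2, chr5:90903649-90903898, plus strand: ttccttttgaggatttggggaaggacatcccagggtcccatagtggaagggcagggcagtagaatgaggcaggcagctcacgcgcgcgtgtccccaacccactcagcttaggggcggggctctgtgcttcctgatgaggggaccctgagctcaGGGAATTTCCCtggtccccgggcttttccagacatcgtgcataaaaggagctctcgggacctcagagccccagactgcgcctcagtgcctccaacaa
Cxcl3, chr5:90785851-90786100, plus strand: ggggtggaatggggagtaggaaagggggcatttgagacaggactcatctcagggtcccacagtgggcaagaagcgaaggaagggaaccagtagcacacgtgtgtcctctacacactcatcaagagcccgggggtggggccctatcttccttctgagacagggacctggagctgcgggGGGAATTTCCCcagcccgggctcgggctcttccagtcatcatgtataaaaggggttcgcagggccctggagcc
Cxcl10, chr5:92348890-92349139, minus strand: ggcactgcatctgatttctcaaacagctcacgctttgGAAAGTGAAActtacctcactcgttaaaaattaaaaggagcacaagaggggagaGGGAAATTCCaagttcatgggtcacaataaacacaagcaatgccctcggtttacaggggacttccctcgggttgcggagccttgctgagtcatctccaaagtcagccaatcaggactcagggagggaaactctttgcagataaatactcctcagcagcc

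The run of 11 capitals in Cxcl1, Cxcl2 and Cxcl3 is the same sequence, in which the motif and its reverse overlap. The RefSeq start is the base that follows each printed window, and in Cxcl1 and Cxcl2 it lies inside the GENCODE span given above. Counted from the RefSeq start the run begins 71 bases upstream in Cxcl1, 97 in Cxcl2 and 73 in Cxcl3. In Cxcl10 the NF-kappaB match begins 159 bases and the interferon-response match 213 bases upstream. Over the table's windows of 300 bases (250 before to 50 after the start), 482 of 32851 promoters held the NF-kappaB motif (1.47%) and 1131 the interferon-response motif (3.44%), on either strand. Of the chemokine and receptor symbols 41 of 56 were in the table, with 48 promoters. The NF-kappaB motif was in 6 of the 48 (12.5%: Ccl1, Ccr3, Cxcl1, Cxcl2, Cxcl3 and Cxcl10) and the interferon-response motif in 3 (6.25%: Ccl19, Cxcl10 and Cxcl14). A match describes these letters and is no measure of binding.

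Ccl2, Ccl7 and Ccl12 are monocyte-attracting ligands that signal mainly through Ccr2 and related receptors. These and Ccl8 were all highest in phagocyte-like cells of cKO arch. Ccl2 stood at 1568, 435.8, 203.5 and 214.7 CPM, with a UMI in 64.1%, 44.6%, 33.9% and 37.4% of cells. Ccl7 stood at 1176, 204.7, 133.2 and 142.6 CPM, and Ccl12 at 683.1, 295.9, 134.7 and 82.7 CPM. Without cluster 13, Ccl12 stood at 288.2 CPM in cKO arch against 283.5 CPM in control arch. Ccl8 stood at 524.8, 216.1, 137.6 and 227.4 CPM, and most of it came from cluster 10, at 4892, 358.9, 256.4 and 489.6 CPM. Fibroblast-like cells were a lesser source of Ccl2, at 136.8, 37.3, 79.9 and 105.6 CPM. In cKO arch 94.1% of the 303 fibroblast-like Ccl2 UMIs lay in 5 of 301 cells.

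Ccl6 and Ccl9, myeloid ligands of the Ccr1 group, were broad across phagocyte-like cells. Ccl6 stood at 2523, 2095, 1746 and 2034 CPM with a UMI in 68.7%, 88.6%, 85.6% and 89.0% of cells, so its level varied little between libraries. Ccl9 stood at 916.7, 337.9, 290.3 and 297.5 CPM. In cluster 5 of cKO arch Ccl6 reached 9034 CPM and Ccl9 3275 CPM. Ccl24, an eosinophil attractant read by Ccr3, stood at 285.5, 498.4, 471.1 and 509.2 CPM in phagocyte-like cells, lowest in cKO arch. That class value hides opposite clusters, since cluster 10 had 153.7, 787.7, 770.5 and 904.6 CPM while cluster 5 of cKO arch had 1400 CPM.

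Ccl3 and Ccl4, which draw in myeloid and T cells, stood at 262.6, 36.7, 22.2 and 28.1 CPM and at 513.8, 64.8, 31.5 and 20.4 CPM in phagocyte-like cells. In cKO arch neutrophil-like cells the levels were 1803 CPM for Ccl3 and 3783 CPM for Ccl4. T cell-like cells carried Ccl4 at 184.3, 94.9, 116.0 and 74.5 CPM. The interferon-induced ligands of Cxcr3, Cxcl9 and Cxcl10, were in phagocyte-like cells at 77.6, 4.63, 9.27 and 16.5 CPM and at 260.8, 10.3, 11.5 and 8.40 CPM. In cKO arch Cxcl10 was 439.9 CPM in cluster 13 and 519.5 CPM in neutrophil-like cells. In control descending its highest level, among classes and clusters of at least 50 cells, was 108.3 CPM in mesothelial-like cells. Cxcl9 was also found in the unnamed cluster led by Gpihbp1, Car4 and Cd300lg (cluster 23), a cluster scoring highest for endothelial markers, at 131.4, 67.5, 102.3 and 160.1 CPM.

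Ccl17 and Ccl22, which draw Ccr4-bearing T cells and are typical of dendritic cells, were highest in cluster 26 among the phagocyte-like clusters. In cKO arch this cluster held 1252 of the 2003 Ccl17 UMIs and 593 of the 625 Ccl22 UMIs of phagocyte-like cells, and cluster 13 held 686 and 30. Ccl17 stood there at 789.4, 61.5, 34.2 and 44.7 CPM and Ccl22 at 373.9, 1.62, 11.4 and 2.29 CPM. Of the 158 cells of cluster 26 in cKO arch, 42 had a UMI of Ccr7, the receptor that leads mature dendritic cells to lymph nodes. Among those 42 cells, 64.3% also had Ccl22, 54.8% Ccl17, 71.4% Ccl5 and 90.5% Cxcl16, against 13.8%, 23.3%, 10.3% and 40.5% of the 116 cells without Ccr7. Xcr1, the receptor of cross-presenting dendritic cells, was in 2.38% of the cells with Ccr7 and 7.76% of those without. In cluster 26 of the other libraries Ccr7 was found in 1 of 66, 1 of 91 and 0 of 65 cells.

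Ccl5, the T and NK cell ligand of Ccr1 and Ccr3 among others, was highest in NK cell-like cells, of which there were only 23 to 50 in a library, at 8367, 16780, 15420 and 17280 CPM. T cell-like cells had 2735, 2564, 3412 and 3995 CPM with a UMI in 40.6%, 26.3%, 40.3% and 36.8% of cells. In phagocyte-like cells Ccl5 stood at 452.6, 2.49, 3.66 and 31.1 CPM, from 4577, 7, 15 and 196 UMIs. Cluster 26 carried most of it in cKO arch, at 2142 CPM against 0, 0.877 and 180.9 CPM. Xcl1, the ligand of Xcr1, was also highest in NK cell-like cells, at 994.8, 528.1, 649.9 and 529.4 CPM, and stood at 105.0, 98.5, 43.4 and 156.4 CPM in T cell-like cells.

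Cxcl12, the homeostatic ligand of Cxcr4 and Ackr3, was a stromal transcript in every library. In fibroblast-like cells it stood at 511.6 CPM (482.2 to 542.3) in cKO arch, 271.2 (263.2 to 279.3) in control arch, 344.5 (333.1 to 356.3) in cKO descending and 386.7 (374.1 to 399.6) in control descending, with a UMI in 62.8%, 49.97%, 53.7% and 58.0% of cells. It was highest in cKO arch and lowest in control arch. Smooth muscle-like cells had it at 68.1, 39.3, 83.2 and 82.2 CPM, lowest in control arch. Endothelial-like cells had 340.1, 69.1, 88.7 and 45.5 CPM, from 162, 172, 140 and 33 UMIs, so that cKO arch stood apart from the other 3 libraries. Cluster 23 was the richest source with cells in all libraries (49 in cKO arch), at 924, 815.1, 921.7 and 721.1 CPM. In the unnamed cluster led by Spp1, Comp and Timp1 (cluster 8), which had 1114 cells in cKO arch and 18, 10 and 5 in the other libraries, Cxcl12 stood at 510.2 CPM.

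**Figure D2:**
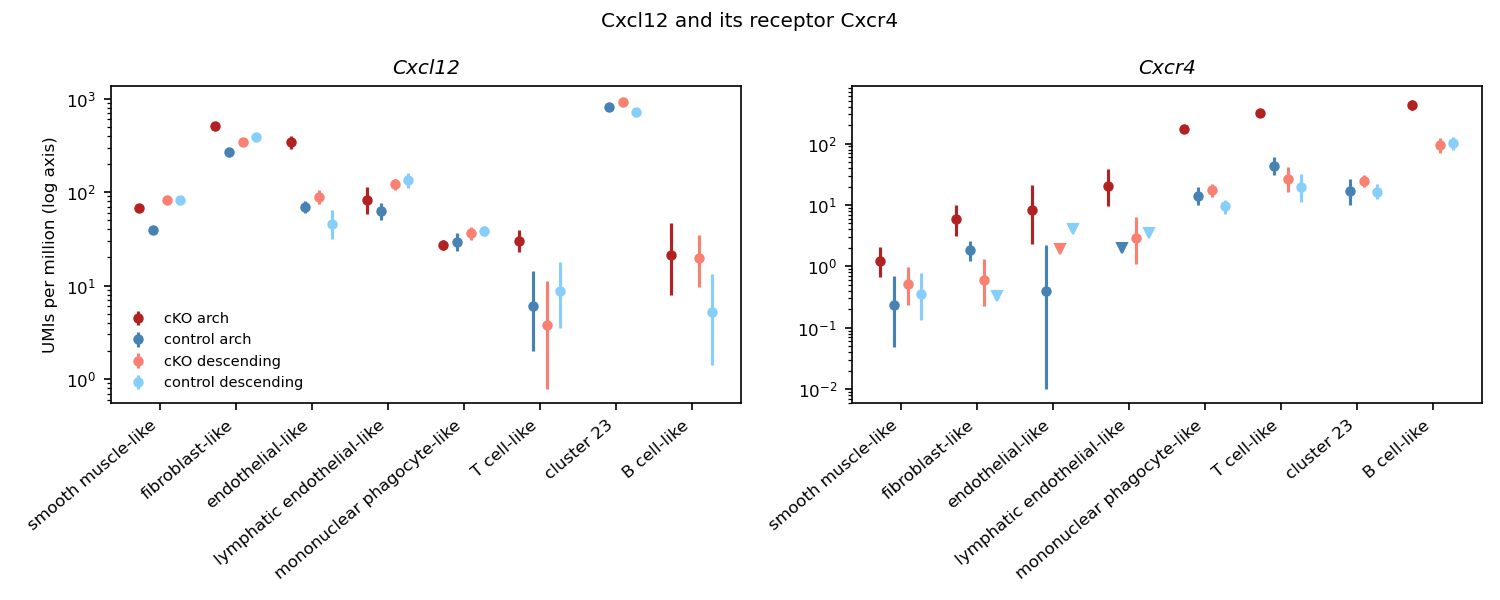
Cxcl12 and its receptor Cxcr4 in CPM on a log axis, for 8 cell classes or clusters in each of the 4 libraries; bars are exact Poisson 95% intervals and triangles mark the limit set by 3 counts where no UMI was found. Classes or clusters with under 50 cells in a library are not drawn. These are cluster 23 of cKO arch (49 cells) and B cell-like cells of control arch (32 cells). Cxcl12 is highest in the fibroblast-like cells and in cluster 23, and Cxcr4 in the leukocyte classes. In those classes cKO arch lies above the other libraries drawn.

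Ccl11 (eotaxin, read by Ccr3) was a fibroblast transcript, at 215.4, 265.9, 596.4 and 546.2 CPM in fibroblast-like cells, and both descending libraries lay above both arch libraries. Cxcl14, a ligand of uncertain receptor, showed the same order of regions, at 14.5, 27.6, 126.7 and 85.0 CPM. Cxcl13, the B cell attractant read by Cxcr5, stood at 2.26, 62.7, 31.9 and 36.1 CPM in fibroblast-like cells, from 5, 1020, 315 and 333 UMIs. In control arch 85 of the 1949 fibroblast-like cells carried it, and 5 of them held 50.2% of the UMIs.

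Ccl19, a ligand of Ccr7 with several near-identical copies whose reads may have been split or dropped in counting, stood at 112.9, 210.7, 130.4 and 116.6 CPM in fibroblast-like cells. It was also in smooth muscle-like cells at 3.53, 19.1, 28.0 and 26.4 CPM, from 40, 240, 484 and 439 UMIs, and was low in cKO arch alone. Pericyte-like cells, with too few cells in cKO arch for a value, had 63.6, 354.7 and 443.5 CPM in the other libraries. Ccl27a, a ligand of Ccr10, was the steadiest smooth muscle ligand at 47.3, 49.99, 66.5 and 62.2 CPM, but its gene overlaps Il11ra1 and reads of the pair may not be told apart.

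Cx3cl1 (fractalkine), a membrane-tethered ligand of Cx3cr1, stood at 88.2, 39.0, 85.5 and 78.6 CPM in endothelial-like cells. Smooth muscle-like cells had it at 18.2, 5.17, 6.01 and 4.46 CPM and fibroblast-like cells at 36.1, 15.6, 11.1 and 11.8 CPM, highest in cKO arch in both. Cluster 8 of cKO arch had 109.7 CPM. Cxcl16, likewise made as a membrane protein and read by Cxcr6, stood at 358.9, 81.9, 87.6 and 65.5 CPM in phagocyte-like cells, with 84.0, 63.9, 55.7 and 34.5 CPM in endothelial-like cells. Mesothelial-like cells had Cxcl16 at 86.4 CPM in control arch, 107.4 in cKO descending and 103.1 in control descending, above the phagocyte-like cells of the same libraries.

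Ccl21a, the lymphatic ligand that guides Ccr7-bearing cells into lymph vessels, was highest in lymphatic endothelial-like cells in all 4 libraries. It stood at 6433, 2096, 1961 and 3812 CPM, from 2793, 3199, 4011 and 3270 UMIs. Few cells carried most of it. A UMI was found in 31 of 55, 11 of 142, 27 of 240 and 23 of 144 lymphatic endothelial-like cells, and the 5 richest cells held 48.4%, 87.3%, 65.6% and 60.4% of the UMIs. In smooth muscle-like cells, which should lack it, Ccl21a was in 1.10%, 0.156%, 0.513% and 0.225% of cells, at median depths of 7983, 8650, 10972 and 12201 UMIs against 6593, 6269, 5644.5 and 3167.5 in the lymphatic class. Ccl21a, Ccl21b and Ccl21c are near-identical, so the split between them is uncertain.

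On the receiving side, receptors were carried by leukocyte classes. Summed receptors stood at 6.43, 2.07, 3.47 and 1.75 CPM in smooth muscle-like cells, against 1110, 464, 541 and 367 CPM in phagocyte-like cells and 970, 1323, 877 and 1163 CPM in T cell-like cells.

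Ccr2, which brings monocytes from the blood, stood at 304.4, 184.8, 248.3 and 125.2 CPM in phagocyte-like cells, with a UMI in 49.2%, 30.1%, 32.4% and 27.3% of cells. Smooth muscle-like cells, which should lack it, had a Ccr2 UMI in 0.866%, 0.391%, 0.706% and 0.674% of cells, at the median depths given above, against 6585, 7004, 6381.5 and 9510 UMIs in the phagocyte-like cells. Within the class it was high in cluster 26, at 277.4, 552.2, 549.9 and 501.6 CPM, and in cluster 5 at 570.1 CPM. Cluster 10 had Ccr2 at only 85.2, 65.7, 97.8 and 91.9 CPM. Ccr2 was also in the unnamed cluster led by Nrgn, Ctla2a and Clec1b (cluster 17, with 21 to 58 cells a library) at 273.1, 219.7, 565.1 and 517.9 CPM. This cluster scored highest for platelet markers, and Gata3 and Areg were also among its leading genes. The same cluster carried Cxcr6 at 344.3, 164.8, 332.7 and 421.8 CPM and Ccr8 at 142.5, 67.1, 132.2 and 133.4 CPM.

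Ccr1 and Cx3cr1 were also phagocyte receptors. Ccr1, which reads Ccl6 and Ccl9 among others, stood at 130.1, 63.7, 57.1 and 106.7 CPM. In cKO arch Ccr1 was 423.1 CPM in cluster 5 and 748.0 CPM in neutrophil-like cells. Cx3cr1, which keeps resident macrophages and patrolling monocytes, stood at 186.6, 82.6, 83.4 and 44.1 CPM, and was highest in cluster 13 at 314, 522, 333.6 and 242.9 CPM. Cx3cr1 overlaps other annotated genes, and the labels do not state a counting strand.

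Cxcr4, the Cxcl12 receptor, was highest in cKO arch in T cell-, phagocyte- and B cell-like cells. Within cKO arch, neutrophil-like cells had the highest level among classes and clusters of at least 50 cells, at 682.0 CPM. T cell-like cells had 320.6 CPM (294.9 to 348) in cKO arch, against 43.8, 26.8 and 19.9 CPM in the other libraries. A UMI was found in 50.5%, 19.1%, 11.3% and 10.3% of T cell-like cells, at median depths of 3340, 4778, 4552 and 5084 UMIs. After every cell was thinned to 1000 UMIs the shares were 24.0%, 5.33%, 3.17% and 1.31%. Phagocyte-like cells had Cxcr4 at 171.9, 14.2, 17.6 and 9.51 CPM, with thinned shares of 15.7%, 0.860%, 1.74% and 0.701%, and B cell-like cells at 422.8, 249.6, 94.3 and 100.9 CPM. In smooth muscle-like cells, which serve as background, 0.944%, 0.156%, 0.577% and 0.449% of cells had a Cxcr4 UMI. Ackr3, the other Cxcl12 receptor, lay in the structural cells instead, at 436.2, 715.6, 602.1 and 681.3 CPM in fibroblast-like cells and 310.7, 482.3, 217.8 and 230.3 CPM in endothelial-like cells.

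Ccr7 was lowest in cKO arch in T cell-like and B cell-like cells. T cell-like cells had Ccr7 at 50.8, 335.7, 318.8 and 445.7 CPM, with a UMI in 7.07%, 44.7%, 49.7% and 53.5% of cells and thinned shares of 3.69%, 28.0%, 24.7% and 30.1%. Smooth muscle-like cells had a Ccr7 UMI in 0.157%, 0, 0.128% and 0.0749% of cells. B cell-like cells had 225.8, 475.8, 277.7 and 319.6 CPM, with only 32 cells in control arch. Cluster 26 in cKO arch, at 565.6 CPM against 1.62, 1.75 and 0 CPM, is the cluster described above for its cells with Ccr7.

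The remaining T cell receptors were less uniform. Cxcr6 stood at 244.7, 454.9, 181.1 and 191.2 CPM in T cell-like cells and Cxcr3 at 138.5, 128.9, 184.9 and 222.2 CPM. Cxcr6 overlaps Fyco1. Ccr9, a receptor of thymocytes and gut-homing T cells that reads Ccl25, stood at 1.12, 77.8, 8.93 and 17.4 CPM in T cell-like cells. Thymocyte-like cells, 248 of which were in control arch and 14, 3 and 10 in the other libraries, had Ccr9 at 330.5 CPM there, in 73.4% of cells. Ccl25 stood at 6.52, 9.86, 7.75 and 7.17 CPM in smooth muscle-like cells. It was higher in thymocyte-like cells of control arch (19.7 CPM), Schwann-like cells of cKO descending (21.9 CPM) and adipocyte-like cells of control descending (52.2 CPM). The Ccl25 gene overlaps Elavl1.

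Cxcr5 and Ccr6 were B cell receptors in these data, at 86.0, 163.8, 108.6 and 157.9 CPM and at 57.3, 62.4, 71.2 and 56.9 CPM in B cell-like cells. Cxcr2, the receptor of Cxcl1, Cxcl2, Cxcl3 and Cxcl5, was a neutrophil transcript, at 1181 CPM in neutrophil-like cells of cKO arch with a UMI in 79.0% of cells and in 59.3% after thinning. In phagocyte-like cells Cxcr2 stood at 2.57, 0, 0.244 and 0 CPM. The ligands of Cxcr2 were thus found in both the phagocyte-like and the neutrophil-like cells of cKO arch, and the receptor in the neutrophil-like cells.

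**Figure D3:**
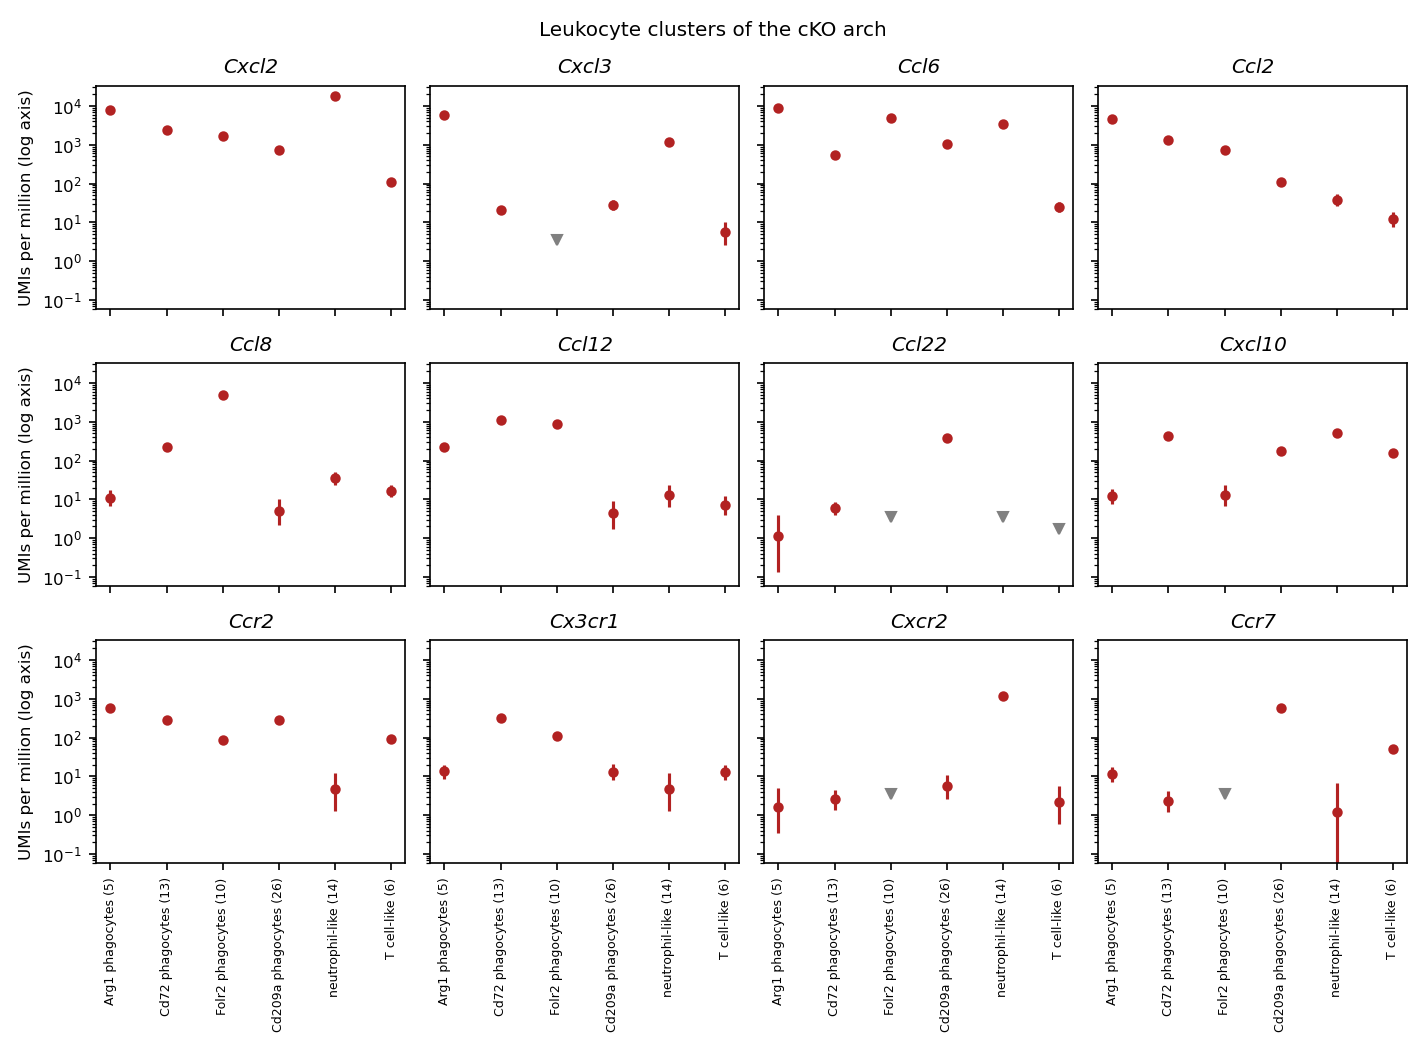
CPM on a log axis of 12 ligands and receptors in 6 leukocyte clusters of the cKO arch library; bars are exact Poisson 95% intervals and grey triangles give the limit set by 3 counts where no UMI was found. Cxcl3 is high in cluster 5 and in neutrophil-like cells, Ccr7 and Ccl22 in cluster 26, Ccl8 in cluster 10 and Cxcr2 in neutrophil-like cells.

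The cKO and control libraries were then compared within a class. A gene was compared when both libraries had at least 50 cells of the class and together at least 30 UMIs of the gene, and it was counted as higher or lower when its CPM differed at least 2-fold. This is a rule of size and carries no p. The share of all genes that pass the same rule is given beside each first count. In these classes, fewer cells of a subtype and less RNA per cell cannot be told apart.

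In phagocyte-like cells of the arch, 23 of 35 genes were at least 2-fold higher in the cKO library and 1 was lower. Of all 11131 genes compared, 8.08% were higher and 21.7% passed in either direction. The median log2 ratio was 1.44 for the chemokines and receptors and -0.15 for all genes. All 18 ligands that passed, of 27 compared, were higher. Of 8 receptors 5 were higher (among them Ccr1 1.03, Cx3cr1 1.17, Cxcr4 3.58 and Ccr7 4.50, as log2 ratios) and 1 was lower (Cxcr3 -1.49).

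Cxcl3, Ccl5 and Ccl22 had the largest ratios among ligands with a UMI in both libraries. The log2 ratio was 10.98 for Cxcl3 (counting interval 9.09 to 16.87) and 6.86 for Ccl22 (4.96 to 12.75), each against 1 UMI in control arch. It was 7.41 for Ccl5 (6.46 to 8.82). Cxcl5 had 92 UMIs against 0, which is at least 8.52-fold higher. Further ratios were 4.64 for Cxcl10, 4.01 for Cxcl9, 3.82 for Ccl17, 2.98 for Ccl4, 2.86 for Cxcl2 (2.78 to 2.95), 2.83 for Ccl3 and 2.52 for Ccl7. Ccl6 (0.27), Ccr2 (0.72) and Ccl24 (-0.80) did not reach 2-fold.

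The clusters that make up the class differed between these libraries. Cluster 13 held 58.9% of the cells in cKO arch and cluster 10 held 66.6% in control arch. Without cluster 5, found in cKO arch alone, 18 of 34 genes were higher and 2 lower (19.0% of all genes in either direction), and 19 of the genes that passed before still did. The log2 ratio of Cxcl3 was then 5.08, that of Ccl2 1.11 and that of Cxcl2 2.25, while Ccl6 stood at -0.91, Ccl9 at 0.27, Cxcl1 at 0.99, Ccr1 at 0.07 and Ccl24 at -3.48. Without cluster 13, 22 of 34 genes were higher and 1 lower (20.3% of all genes in either direction), and 22 of the genes that passed before still did. Those that no longer passed were Ccl12, at 0.02, and Cx3cr1, at 0.04 (59.8 against 57.9 CPM), while Ccl6 now passed at 1.03. Within cluster 13, Cx3cr1 stood at 314 CPM in cKO arch and 522 CPM in control arch, the latter from 34 cells. Without cluster 15, Ccr1 stood at 0.99.

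Within cluster 10, present in all 4 libraries with 114, 239, 349 and 324 cells, 10 of 19 genes were at least 2-fold higher in cKO arch than in control arch and 1 was lower (10.7% of all genes in either direction). They were Ccl8 (3.77, interval 3.65 to 3.90), Ccl4 (2.98), Cxcl2 (2.97), Ccl3 (2.59), Cxcl1 (2.55), Cxcr4 (2.43), Ccl7 (2.27), Cxcl13 (1.83), Ccl9 (1.78) and Ccl12 (1.10), and the lower gene was Ccl24 (-2.35). Ccl6 (0.97), Ccl2 (0.79) and Ccr2 (0.38) lay under 2-fold. In the descending aorta 23 genes could be compared within cluster 10, and none reached 2-fold, where 2.24% of all genes did. The ratios there lay between -0.95 for Ccl5 and 0.40 for Ccl12 among the genes named here, with Ccl8 at -0.93, Cxcl2 at -0.41 and Cxcl1 at 0.07.

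**Figure D4:**
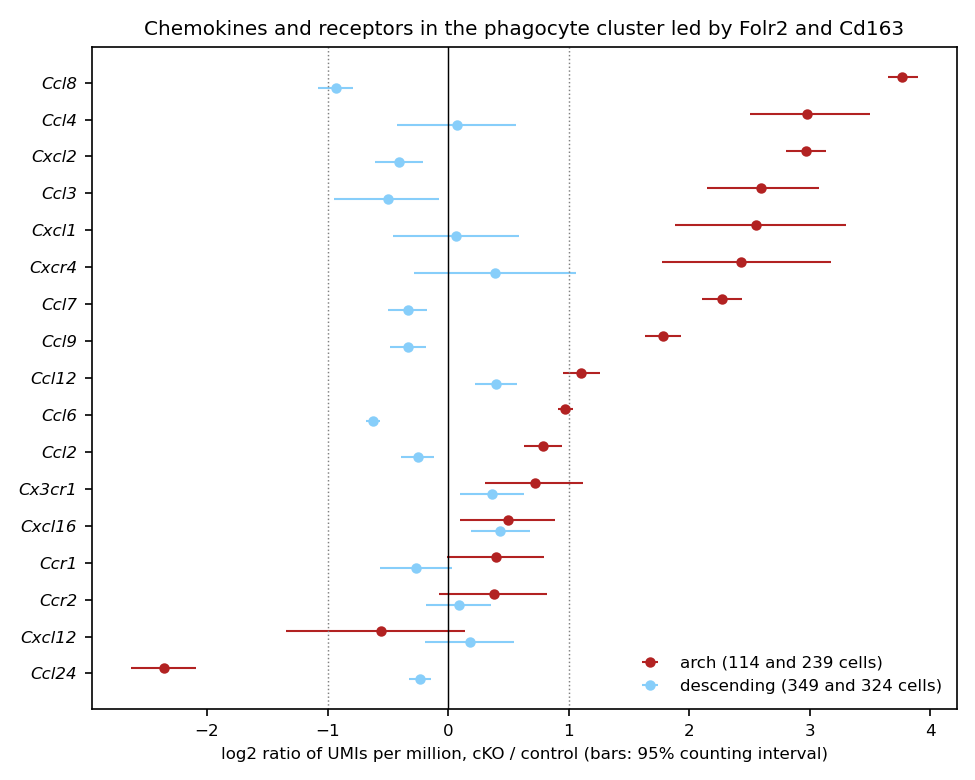
Log2 ratio of CPM, cKO over control, for chemokines and receptors compared in phagocyte cluster 10 (led by Cd209f, Folr2, F13a1 and Cd163), in the arch (red, 114 and 239 cells) and the descending aorta (light blue, 349 and 324 cells); bars are 95% counting intervals and dotted lines mark 2-fold. The arch points reach 3.77 for Ccl8 and -2.35 for Ccl24, and all descending points lie between the dotted lines.

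Cluster 26 alone, with 158 and 66 cells in the arch, had 12 of 23 genes higher and 3 lower in cKO arch (17.0% of all genes in either direction). Ccl5 had 3398 UMIs against 0 there, and the log2 ratios were 7.86 for Ccr7, 7.27 for Ccl22, 4.53 for Cxcr4, 3.66 for Ccl17 and 1.18 for Cxcl2. Ccl12 (-3.68), Ccl2 (-1.27) and Ccl6 (-1.16) were lower. The dendritic-like cluster and cluster 10 thus differed in which ligands were higher in cKO arch.

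In T cell-like cells of the arch, 7 of 20 genes were higher in cKO and 3 lower (16.7% of all genes), with a median log2 ratio of 0.37 against -0.15 for all genes. All 6 ligands that passed, of 9, were higher, and of 11 receptors 1 was higher and 3 were lower. Cxcr4 had a log2 ratio of 2.85 (2.39 to 3.40), Cxcl10 2.82, Cxcl12 2.19 and Ccl6 1.93. Cxcl2 had 193 UMIs against 0 (at least 29.6-fold), Ccl1 31 against 0 (at least 4.75-fold) and Ccl8 30 against 0 (at least 4.59-fold). The lower receptors were Ccr9 (-5.81, 2 against 64 UMIs), Ccr7 (-2.72, interval -3.08 to -2.38) and Ccr4 (-1.96). Ccr4 stood at 11.7, 46.2, 8.93 and 12.4 CPM, so that control arch lay above all other libraries, and Ccr9 was also highest in control arch. Markers of other cells differed too in this class. The 7 macrophage markers summed to 128, 26.8, 37.0 and 39.7 CPM and the 6 neutrophil markers to 69.8, 26.8, 57.4 and 55.9 CPM, with 1, 5, 5 and 5 of the neutrophil markers at 0, and their part in the ligand values was not tested.

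In smooth muscle-like cells of the arch, 13 of 18 ligands were at least 2-fold higher in cKO and 1 was lower, where 4.14% of all genes were higher and 10.8% passed in either direction. No receptor had enough UMIs to be compared. The median log2 ratio was 2.09 for the ligands and -0.13 for all genes. Among ligands with a UMI in both libraries the largest ratio was that of Cxcl2 at 6.03, from 265 against 4 UMIs, followed by Ccl7 at 4.72 (59 against 2), Ccl2 at 4.38 (84 against 4) and Ccl8 at 4.27 (78 against 4). Cxcl3 had 52 UMIs against 0 (at least 19.2-fold), Ccl4 35 against 0 (at least 12.9-fold) and Cxcl10 30 against 0 (at least 11.1-fold). Cx3cl1 had a log2 ratio of 1.81 (1.41 to 2.25). The lower gene was Ccl19, at -2.42 (-2.96 to -1.95).

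Leukocytes of the same library carried most of those ligands at far higher levels. Cxcl2 stood at 23.4 CPM in smooth muscle-like cells of cKO arch and at 17630 CPM in its neutrophil-like cells. The 6 neutrophil markers summed to 24.6, 3.97, 0.98 and 1.81 CPM in smooth muscle-like cells, with 1, 1, 3 and 2 of them at 0, and the 7 macrophage markers to 52.4, 20.0, 17.1 and 24.4 CPM with none at 0. When genes at less than 0.1 of the level of another class in either library were left out, 2 ligands could still be compared and neither reached 2-fold. A ligand this low in control arch alone is left out whatever its level in cKO arch. Cx3cl1 was left out in this way, since cluster 24 of control arch had 116.3 CPM. The rule thus does not separate free RNA from a low control level. The part of free RNA in these values was not tested. Cxcl12 (0.79) and Ccl27a (-0.08) did not reach 2-fold.

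The composition of the smooth muscle class also differed, with cluster 0 holding 64.1% of it in cKO arch and cluster 3 holding 40.8% in control arch. Ccl19 was lower in cluster 0 alone, at -2.89 (-3.59 to -2.27), and at -0.26 (-1.31 to 0.60) in cluster 3 alone. Cx3cl1 was higher in both, at 1.40 (0.79 to 2.11) and 2.81 (2.14 to 3.55). Cxcl12 stood at 0.97 (0.69 to 1.27) and 1.83 (1.54 to 2.13). An unnamed cluster led by Tnnt2 and Des, which scores highest for smooth muscle markers (cluster 1), held 2070 cells of control arch and 61, 28 and 19 of the other libraries. With it and the similar cluster 27 joined to the class, 16 of 24 genes were higher and 1 lower, where 13.8% of all genes passed in either direction.

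In fibroblast-like cells of the arch, 10 of 23 genes were higher in cKO and 2 lower, where 3.79% of all genes were higher and 13.1% passed in either direction. The median log2 ratio was 0.74 against -0.10 for all genes. Among genes with a UMI in both libraries the largest ratio was 6.17 for Cxcl2 (112 against 11 UMIs), then 3.06 for Ccl9, 2.22 for Ccl8, 1.88 for Ccl2, 1.70 for Cxcr4, 1.44 for Ccl7, 1.22 for Cx3cl1 and 1.19 for Ccl6. Cxcl3 had 39 UMIs against 0 (at least 95.5-fold) and Ccl4 67 against 0 (at least 164-fold), but the Ccl4 UMIs lay in 8 cells. Lower were Cxcl13 (-4.66, 5 against 1020 UMIs) and Cxcl15 (-2.06, 2 against 76 UMIs). The 76 Cxcl15 UMIs of control arch lay in 18 of 1949 cells, with 73.7% in 5 of them.

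Cxcl12 had a log2 ratio of 0.92 in this class, below 2-fold, and the clusters within it went opposite ways. In cluster 21 it was 1.97 (1.83 to 2.12) and in cluster 19 it was -0.31 (-0.53 to -0.10). Cluster 19 held 51.2% of the class in cKO arch and cluster 21 held 35.9% in control arch. Cluster 32, led by Chad and Tbx20, had 154 cells in control arch and none in any other library. Clusters 20 and 22 had 272 and 348 cells in control arch and 14 and 27 in cKO arch. The part of these clusters in the fibroblast ratios, between genotypes or regions, was not tested. The neutrophil markers summed to 64.6, 0.31, 0.91 and 0.76 CPM in fibroblast-like cells and the macrophage markers to 63.7, 22.1, 27.7 and 29.0 CPM. With genes at less than 0.1 of another class in either library left out, 2 of 11 genes still passed, Cx3cl1 and Cxcl15.

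In endothelial-like cells of the arch, with 71 and 369 cells, 3 of 6 ligands were higher in cKO and none lower (11.0% of all genes). The median log2 ratio was 0.89 against -0.08 for all genes. They were Cxcl2 (3.41), Cxcl12 (2.30, interval 1.98 to 2.62) and Cx3cl1 (1.19, interval 0.62 to 1.72). With genes at less than 0.1 of another class in either library left out, Cx3cl1 remained. Cxcl12 was left out through control arch alone, at 69.1 CPM against 815.1 CPM in cluster 23. In cKO arch it stood at 340.1 CPM, against at most 511.6 CPM in another class of at least 50 cells. The endothelial-like class is cluster 11 alone. Outside it are 2 unnamed clusters that also score highest for endothelial markers, cluster 23 and a shallow cluster led by Sema3g and Podxl (cluster 24). Cluster 23 had similar Cxcl12 levels in cKO and control arch, as given above. In control arch Cx3cl1 stood at 116.3 CPM in cluster 24, against 39.0 CPM in the endothelial-like class. In the 4 libraries the 7 endothelial markers summed to 6607, 8901, 8407 and 10110 CPM in this class, the 6 smooth muscle markers to 1707, 1042, 780.1 and 1356 CPM, the neutrophil markers to 23.1, 1.21, 1.90 and 1.38 CPM with 4, 4, 4 and 5 of the 6 at 0, and the macrophage markers to 73.5, 53.0, 21.5 and 31.7 CPM. Their part in the ligand values was not tested.

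In lymphatic endothelial-like cells, with 55 and 142 cells, 2 of 5 ligands were higher and 2 lower (15.4% of all genes). The log2 ratio was 1.62 for Ccl21a and 1.22 for Ccl2, and the lower genes were Cxcl16 (-3.13, 3 against 107 UMIs) and Cx3cl1 (-1.84, 2 against 31 UMIs). Cx3cl1 was thus higher in cKO arch in the endothelial-like cells and lower in the lymphatic class. The 6 lymphatic endothelial markers summed to 4885, 2288, 1843 and 2736 CPM in the lymphatic class, the smooth muscle markers to 1649, 624.5, 495.3 and 899.9 CPM, the macrophage markers to 69.1, 24.9, 70.9 and 33.8 CPM and the neutrophil markers to 16.1, 0, 0.49 and 1.17 CPM with 3, 6, 5 and 5 of the 6 at 0. Their part in these ratios was likewise not tested.

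The same comparison was made in the descending aorta. In smooth muscle-like cells there 1 of 11 genes was higher and none lower (1.88% of all genes). That gene was Ccr2, at 1.12 with an interval of -0.02 to 2.47 from 21 against 9 UMIs. The median log2 ratio of the 11 was 0.08. In endothelial-like cells 1 of 6 was higher (3.24% of all genes), Ccl5 with 54 UMIs against 0, all in 1 cell.

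In fibroblast-like cells of the descending aorta 1 of 19 genes was higher and 4 lower (2.19% of all genes), with a median of -0.14. Lower were Ccl5 (-5.29, 7 against 274 UMIs), Ccr2 (-3.66, 2 against 29), Cxcl10 (-2.47) and Ccl6 (-1.21). The higher gene was Ccl21a (4.93). These values rested on few cells. The 274 Ccl5 UMIs of control descending lay in 11 of 1072 cells with 97.8% in 5 of them, and the 277 Ccl21a UMIs of cKO descending in 7 cells with 99.3% in 5.

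In phagocyte-like cells of the descending aorta 2 of 30 genes were higher and 6 lower in cKO (6.33% of all genes), and the median was -0.06 against -0.02 for all genes. Lower were Ccl5 (-3.04), Cxcl1 (-2.66), Cxcl14 (-2.65), Ccl11 (-2.64), Cxcl2 (-2.64) and Cxcl13 (-1.74). Higher were Cxcr3 (1.28) and Xcr1 (3.82, interval 2.94 to 4.99). Without cluster 31, of which control descending held 126 of 149 cells, 2 of 29 were higher and 5 lower (5.53% of all genes), and 4 of the genes that passed before still did. Cxcl2 and Cxcl1 were then at -0.73 each, Ccl8 at -1.17, Cxcl10 at 1.19, Ccl5 at -3.48 and Xcr1 at 3.18.

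In T cell-like cells of the descending aorta 1 of 10 genes was higher and 2 lower (3.1% of all genes). The higher gene was Cx3cr1 (1.00), and Xcl1 (-1.84) was among the lower. In lymphatic endothelial-like cells 3 of 7 ligands were higher and 1 lower (2.63% of all genes), namely Cxcl1 (3.09, 30 against 1 UMIs), Cxcl9 (1.32), Cx3cl1 (1.02) and Ccl27a (-1.04). Cxcr4 and Ccr7, which passed 2-fold in T cell-like cells of the arch, did not in those of the descending aorta.

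The regions were compared within each genotype as arch against descending. These comparisons share libraries with those above, so their values are set side by side and not counted as further evidence. In the control libraries, smooth muscle-like cells had 1 of 11 ligands higher in the arch (Cxcl1, 1.5) and 1 lower (Cxcl12, -1.06), where 4.38% of all genes passed. Endothelial-like cells had 2 of 5 lower, Ccl27a (-1.04) and Cx3cl1 (-1.02), where 7.25% of all genes passed.

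Control fibroblast-like cells had 3 of 21 genes higher in the arch and 7 lower (9.13% of all genes). Lower in the arch were Ccl5 (-5.83), Ccr2 (-4.38), Cxcl14 (-1.62), Ccl2 (-1.50), Ccl6 (-1.14), Ccl11 (-1.04) and Ccl8 (-1.03). Higher were Cxcl5 (5.45, 192 against 2 UMIs), Cxcl15 (the same 76 UMIs in 18 cells against 0, at least 14.4-fold) and Cxcr4 (30 against 0, at least 5.67-fold). Control phagocyte-like cells had 6 of 30 higher in the arch and 6 lower (7.3% of all genes). Higher were Xcr1 (2.50), Ccl12 (1.84), Ccl4 (1.66), Ccl17 (1.10), Ccl2 (1.02) and Cxcl13 (1.02), and lower were Ccl5 (-3.54), Cxcl1 (-3.04), Ccl11 (-2.40), Cxcl9 (-1.78), Cxcl14 (-1.70) and Cxcl2 (-1.64).

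In the cKO libraries, the arch was higher for 14 of 21 genes and lower for 2 in smooth muscle-like cells (11.8% of all genes), with Cxcl2 at 5.96, Cx3cl1 at 1.60 and Ccl19 at -2.97. In fibroblast-like cells 5 of 19 were higher and 4 lower (12.6% of all genes). There Cxcl2 was at 6.80, Ccl11 at -1.47, Cxcl14 at -3.11, Cxcl13 at -3.69 and Ccl21a at -4.64. Endothelial-like cells had 3 of 7 higher and 1 lower (12.3% of all genes), with Cxcl2 at 6.03, Cxcl12 at 1.94, Cxcl1 at 1.49 and Ccl5 at -1.58. Phagocyte-like cells had 25 of 36 higher and 2 lower (20.8% of all genes), the lower being Xcr1 (-2.24) and Cxcr3 (-1.89). Ccl11 and Cxcl14 were lower in the arch than in the descending aorta in fibroblast-like cells of both genotypes.

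Genes around the chemokine system were followed in the same 4 classes. Of the atypical receptors, Ackr3 was lower in cKO arch in smooth muscle-like cells (4.76 against 17.3 CPM, log2 ratio -1.85) and in phagocyte-like cells (-2.16). Ccrl2, which presents the attractant chemerin, was higher in phagocyte-like cells of cKO arch (1.85) and lower in its endothelial-like cells (-1.97). Ackr4, which takes up Ccl19 and Ccl21, stood at 0, 346, 771 and 690.1 CPM in lymphatic endothelial-like cells, with none found in cKO arch, where 3 counts allow up to 6.91 CPM. Of the chemokines named otherwise, Ppbp, a platelet and myeloid ligand of Cxcr2, was 301.8 against 1.42 CPM in phagocyte-like cells of the arch (log2 ratio 7.56), and cluster 5 is led by it.

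Of the genes for receptor signalling and desensitisation, 3 of 16 were higher in phagocyte-like cells of cKO arch (Rgs1 1.97, Pik3r5 1.29 and Rgs2 1.22, where Rgs1 and Rgs2 dampen G protein signals) and none lower, a share near the 21.7% of all genes that passed in this class. In smooth muscle-like cells, where 10.8% of all genes passed, 2 of 12 were lower, Grk3 (-1.14), a kinase that turns receptors off, and Elmo1 (-1.17). In phagocyte-like cells of the arch 8.08% of all genes were higher and 21.7% passed in either direction. Of the inducing cytokines and their receptors, Il1b had a log2 ratio of 3.58 and Il6 one of 1.34 there, and 2 of 7 were higher. Of 7 NF-kappaB genes 3 were higher there (Tnfaip3 1.23, Nfkb2 1.20 and Nfkb1 1.03). None of the 7 reached 2-fold in smooth muscle-, fibroblast- or endothelial-like cells, where 10.8%, 13.1% and 11.0% of all genes passed. With 7 genes, none passing is near such shares. Of 9 genes that present or cleave chemokines, Sdc4 was higher in phagocyte-like cells of the arch (1.30) and Mmp9 (-5.13), Hspg2 (-1.28) and Sdc2 (-1.15) were lower, beside the same 21.7% of all genes.

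In the descending aorta the phagocyte-like cells had Ccrl2 at -1.98, Ackr3 at -1.59 and Ppbp at -3.48, so that Ccrl2 and Ppbp had ratios of the other sign than in the arch. Il6 stood at -2.38 and Rgs1 at -1.54. None of the 7 NF-kappaB genes reached 2-fold, where 6.33% of all genes did, so that this count is near the share of all genes. Whether the regions differ in these ratios was not tested.

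The genes with the most similar pattern to the 4 leading ligands were looked up over 50 values (21 classes or clusters by library, log2(CPM + 1)), which share libraries and depth. The Pearson correlation with Cxcl2 was highest for Clec4n (0.888), Clec4d (0.883) and Cd300c2 (0.867), and with Ccl6 for Cd300ld (0.946), Siglece (0.933) and Igsf6 (0.924). With Ccl5 it was highest for Cd7 and Nkg7 (0.899 each) and Klrk1 (0.892), and with Cxcl12 for Plpp3 (0.849), Col8a1 and Hrct1 (0.825 each). These are descriptions over the same cells and carry no p.

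In the genome the 62 rows lie mostly in a few clusters, with 14 on chromosome 11, 11 on chromosome 9, 10 on chromosome 5 and 5 on chromosome 4. The Ccl2, Ccl7, Ccl11, Ccl12 and Ccl8 genes lie between 82035571 and 82116799 on chromosome 11, and Ccl5, Ccl9, Ccl6, Ccl3 and Ccl4 between 83525778 and 83664683. Within the first group, Ccl11 had its highest level in fibroblast-like cells and the other 4 in phagocyte-like cells in every library. On chromosome 9, Xcr1, Ccr1, Ccr3 and Ccr2 lie between 123852315 and 124113557. Cx3cl1, led by endothelial-like cells, lies on chromosome 8 between Ccl22 (94745590 to 94751699) and Ccl17 (94810453 to 94812036), which phagocyte-like cells carried.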

How the data were processed

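The deposited data are 10x Genomics gene-by-barcode matrices of UMI counts, 1 per library. Per the submitters' processing notes the authors used Cell Ranger 6.1.1 and mm10, and the headers of the deposited matrices name version 6.1.2; the annotation release and the counting strand are stated neither there nor in the labels. The deposited counts were analysed in Python 3.11.15 with scanpy 1.11.5, scipy 1.17.1, numpy 2.4.6, pandas 2.3.3 and igraph 0.11.9. Barcodes with at least 500 genes and under 10% mitochondrial UMIs were kept. The doublet caller marked 0.0686% of barcodes in cKO arch and 0.0193% in control descending, so that in each library the top-scoring barcodes were removed at 0.8% per 1000 barcodes instead, between 216 and 597 a library. Counts scaled to 10000 per cell, 3000 variable genes without chemokines or receptors, 40 components, 15 neighbours and Leiden resolution 1 gave 33 clusters. Clusters were named from marker lists. A cluster stayed unnamed when its leading genes or second-best class spoke against a name. Low depth with no marker of the class among the leading genes also left a cluster unnamed. A further rule was set after the clusters were seen. It left unnamed a cluster scoring highest for platelet markers with Gata3 among its leading genes (cluster 17).

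UMIs were summed per class and library and given as CPM. Ratios carry a prior of 0.5 UMI and exact 95% counting intervals. Against a library at 0, folds are lower bounds from 3 counts. The ratio and interval code was checked on simulated counts. No model or test across libraries was run, since each group is 1 library.

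The genes given with all values are the 16 ligands and 10 receptors with most UMIs and, per class, up to 4 genes furthest up and 4 furthest down among those past 2-fold. Of the genes this rule takes, 1 receptor is counted but not reported here. Ccl1, Ccl3, Ccl12, Ccl17, Ccl25, Cxcl9, Xcl1, Ccr4, Ccr6, Ccr8 and Cxcr5, which complete ligand and receptor pairs, and the pathway genes' examples were chosen after their values were seen. The genes and lists were chosen with earlier results of these data known. Alternatives were another resolution, stricter cell filters, no doublet removal, another scaling, higher minimums, a free RNA rule and clustering with chemokines. Single clusters alone, clusters left out and joined smooth muscle clusters were added after seeing the data.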

Additional observations from a re-analysis of the deposited data

Results flagged for a closer look

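Among smooth muscle-, fibroblast-, endothelial- and phagocyte-like cells, a gene passed 2-fold in opposite directions in the 2 regions in 6 cases, cKO against control. Outside these classes Cx3cl1 did so too in lymphatic endothelial-like cells, lower in the arch and higher in the descending aorta, as given above. The difference between the regions was not tested in any of them, since each group is 1 library. In phagocyte-like cells the log2 ratios were 7.41 (arch) and -3.04 (descending) for Ccl5, 2.86 and -2.64 for Cxcl2, 2.14 and -2.66 for Cxcl1, 2.48 and -2.65 for Cxcl14, and -1.49 and 1.28 for Cxcr3. In fibroblast-like cells they were 1.19 and -1.21 for Ccl6.

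The same genes within cluster 10, present in all 4 libraries, had ratios of 2.97 (arch) and -0.41 (descending) for Cxcl2 and of 2.55 and 0.07 for Cxcl1. Without cluster 31, which was mostly found in control descending, the descending ratios were -0.73 for Cxcl2 and for Cxcl1, -3.00 for Cxcl14, -3.48 for Ccl5 and 0.81 for Cxcr3. Without cluster 5, found in cKO arch alone, the arch ratios were 2.25 for Cxcl2, 0.99 for Cxcl1, 1.73 for Cxcl14, 7.68 for Ccl5 and -1.21 for Cxcr3.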

How the results depend on the processing

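No paired analysis was possible because each group is 1 library and no result comes from a test. Of 805 ratios of named genes under the alternatives, 716 stayed within the spread allowed by their counting interval, 88 moved and 1 reversed: Ccl5 in smooth muscle-like cells of the arch, -0.305 at Leiden resolution 0.5 against 2.34. Of 85 counts, 56 stayed within 1.5 times and 29 moved; the cause was not tested, apart from the smaller number of genes that some alternatives compare. In the arch the count of genes past 2-fold in smooth muscle-like cells, 14 as reported, was 23 with at least 1000 genes and under 5% mitochondrial UMIs, 9 with no doublets removed, 5 at a minimum of 100 UMIs, 0 without genes under 0.1 of another class and 6 in cluster 3 alone. For fibroblast-like cells, 12 as reported, it was 6 at 100 UMIs, 2 under the free RNA rule and 5 in cluster 19 alone. The free RNA rule also leaves out genes that are low in the control library only. For endothelial-like cells, 3 as reported, it was 10 with no doublets removed and 1 under the free RNA rule, and for phagocyte-like cells, 24 as reported, 11 in cluster 10 and 15 in cluster 26.

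In the descending aorta smooth muscle-like cells, 1 as reported, had 0 at resolution 0.5, with the stricter cell filters, with no doublets removed, at 100 UMIs, under the free RNA rule and in clusters 2 and 4 alone. Fibroblast-like cells, 5 as reported, had 3 at 100 UMIs, 0 under the free RNA rule, 1 in cluster 19 and 3 in cluster 21. Endothelial-like cells, 1 as reported, had 2 with the stricter filters and with median-of-ratios scaling and 0 at 100 UMIs and under the free RNA rule, and phagocyte-like cells, 8 as reported, had 4 under the free RNA rule and 0 in cluster 10. The Cxcl12 ratio in smooth muscle-like cells of the arch, 0.79 as reported, was 0.47 at resolution 0.5 and 1.64 with the stricter filters. Precision is limited by the 71 endothelial-like and 55 lymphatic endothelial-like cells of cKO arch, and by 1 library per group.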

Other observations

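Neutrophil-like cells, 423 in cKO arch and 7, 19 and 10 in the other libraries, entered no comparison. In cKO arch they had summed ligands at 28767 CPM and summed receptors at 2642 CPM, with Ccl6 at 3357 CPM and Ccl6 UMIs in 71.4% of cells. Cxcl5, which was found at 92 UMIs in phagocyte-like cells of cKO arch, had 303 UMIs (21.5 CPM) in the unnamed cluster 8 of the same library, in 2.15% of its cells. Pericyte-like cells had Cxcl12 at 711.8 CPM in control arch, 448.6 in cKO descending and 388.6 in control descending, from 56, 215 and 170 UMIs, with 37, 116 and 100 cells, and 11 cells in cKO arch gave no value. Mesothelial-like cells of control descending had Cxcl13 at 26.7 CPM, against 3.88 in control arch and 5.76 in cKO descending, with a UMI in 16.9%, 3.25% and 5.81% of cells.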
